A study of Mus musculus with 2 samples.

Results

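Ibsp, Ifitm5, Smpd3, Alpl, Spp1, Phex and Sparc are 7 genes of bone matrix and its mineralisation, chosen by name from the 18067 genes listed in at least 1 of 2 single-cell count tables of the embryonic mouse lower jaw. The tissue was the mandibular prominence, the embryonic outgrowth from which the lower jaw forms, with the tongue bud at the earlier stage and the tongue and first skeletal elements at the later one. It came from wild-type CD1 embryos at embryonic day 11.5 (E11.5) and embryonic day 13.5 (E13.5). No genetic alteration or drug was involved. For each stage 12.5 mg of minced tissue was dissociated in the cold for 10 minutes with a Bacillus licheniformis protease, more concentrated at E13.5 (5 mg/ml) than at E11.5 (3 mg/ml), and 9600 cells were loaded on a droplet instrument to capture 6000. Each stage is 1 library, how many embryos it pools and of which sex is not stated in the labels, and stage cannot be told apart from library or protease concentration.

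Bone forms when osteoblasts lay down a collagen matrix and then load it with calcium phosphate. In the jaw these cells arise from neural crest mesenchyme, under the transcription factors Runx2 and Sp7. Bone sialoprotein (Ibsp), osteopontin (Spp1) and osteonectin (Sparc) are secreted matrix proteins that bind mineral or collagen. Tissue-nonspecific alkaline phosphatase (Alpl) removes pyrophosphate, which blocks crystal growth. Neutral sphingomyelinase (Smpd3) and the peptidase Phex are each needed for normal skeletal mineral, and the membrane protein Ifitm5 is a marker of osteoblasts. Osteopontin is also made by macrophages and osteonectin by many cells that assemble extracellular matrix.

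Of the 7 genes, 6 were listed at both stages and Ibsp at E13.5 only, so no E11.5 level or limit is given for Ibsp. At E11.5 there were 7099 cells with a median of 6231 UMIs (unique transcript counts), and at E13.5 there were 6318 with a median of 9280. The authors divided the earlier library into 18 clusters and the later into 22, using these same cells, so levels by cluster are descriptions. A level is the UMIs of a gene summed over cells, divided by all UMIs of those cells and scaled as counts per 1000000 (CPM). The ranges in parentheses are 95% confidence intervals for counting error alone, and with 1 library per stage no p-value is given. A ratio is called higher or lower here when it is at least 1.5-fold, its interval excludes 1 and the gene has at least 20 UMIs over both cell groups. An RNA that differs by sex of the embryo differed between the libraries: 2 of 5899 mesenchyme cells at E11.5 and 1184 of 3905 at E13.5 had a UMI of Xist, the RNA that coats the inactive X chromosome of female cells. The 2 tables share 71 cell barcodes.

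The 7 genes did not behave as 1 set, and neighbouring genes on a chromosome could differ. Ibsp (chromosome 5, 104299171 to 104311469, plus strand, GRCm38, GENCODE annotation) and Spp1 (chromosome 5, 104435118 to 104441050, plus strand) lie 124 kb apart, and at E13.5 most of their UMIs lay in different clusters. Of the 26 cells with Spp1, 2 also had Ibsp, 1 of them in the osteogenic cluster. Ifitm5 (chromosome 7, 140948958 to 140950291, minus strand) had most of its UMIs in the same cluster as Ibsp. The bases before the start of these 3 genes are shown because their levels form the main contrast below. They come from RefSeq (GRCm38.p6) and end before both the RefSeq and the GENCODE start of the gene. Capitals mark matches, on either strand, to 5 motifs searched in all promoters.
Ibsp, chr5:104299037-104299170, plus strand: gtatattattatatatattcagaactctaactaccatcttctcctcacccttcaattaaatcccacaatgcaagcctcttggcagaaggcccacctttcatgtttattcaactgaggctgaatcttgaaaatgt
Ibsp, inverted CCAAT site, chr5:104299228-104299242, plus strand: ctgtgATTGGctgtt
Ibsp, inverted TATAAA site, chr5:104299254-104299269, plus strand: aagggTTTATAgtcag
Spp1, chr5:104434861-104435110, plus strand: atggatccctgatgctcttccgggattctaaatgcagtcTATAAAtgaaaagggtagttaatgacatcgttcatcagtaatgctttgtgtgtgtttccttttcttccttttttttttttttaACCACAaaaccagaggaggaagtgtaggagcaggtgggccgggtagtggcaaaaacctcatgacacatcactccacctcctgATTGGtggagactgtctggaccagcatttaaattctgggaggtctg
Ifitm5, chr7:140950292-140950493, minus strand: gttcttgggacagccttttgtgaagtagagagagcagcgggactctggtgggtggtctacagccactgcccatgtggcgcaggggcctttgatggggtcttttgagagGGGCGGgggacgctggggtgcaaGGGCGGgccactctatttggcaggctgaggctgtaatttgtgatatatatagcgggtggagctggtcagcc

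The Ibsp window holds the CCAAT motif (reverse complement ATTGG) 54 bases and the TATAAA motif (reverse complement TTTATA) 28 bases before the RefSeq start. GENCODE places the Ibsp start 116 bases further upstream, so these matches lie inside the gene by that annotation. The Ifitm5 window holds GGGCGG (reverse complement CCGCCC) at 142 and 119 bases before its RefSeq start. GENCODE places the Ifitm5 start 48 bases further upstream, so both sites lie nearer to that start. Spp1 has the RUNX core ACCACA (reverse complement TGTGGT) at 128 bases, an inverted CCAAT at 46 bases and TATAAA at 211 bases before its RefSeq start. The homeodomain core TAATTA was not matched in these 3 windows. A second RefSeq window of Spp1 holds TAATTA at 122 bases. No match in the printed bases overlaps another. Over all 32817 promoter windows of 250 bases before to 50 after a start, ACCACA was present in 16.8%, TAATTA in 5.30%, GGGCGG in 35.6%, CCAAT in 37.4% and TATAAA in 13.6%. Letters in a window are a description and say nothing of binding. RefSeq windows were matched for 6 of the 7 genes, all but Smpd3.

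Ibsp, Ifitm5 and Smpd3 were concentrated at E13.5 in cluster 5, the 422 cells that the authors named osteogenic progenitors. Of its 9 osteogenic markers, 3 (Ibsp, Ifitm5 and Alpl) are members. Among the others, Runx2 stood at 89.4 CPM against 2.92 CPM in the other mesenchyme and Sp7 at 115 against 2.62 CPM. The summed level of the 9 was 2403 CPM, below that of mesenchyme cluster 21 (3243 CPM), in which Sp7, Ifitm5 and Bglap were at 0. A UMI of each of the 9 was also found in several other mesenchyme, muscle and epithelial clusters. All 8 cartilage markers had UMIs in cluster 5 too, with a summed level of 539 CPM against 2.45 to 149 CPM in the other 21 clusters, so the cluster also holds cells with cartilage transcripts, whose part in the values below was not tested. Its median depth was 9827 UMIs against 8183 in the other 3483 mesenchyme cells.

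Of the 7 genes, 6 reached 20 UMIs in the mesenchyme at E13.5, and 5 of these were called higher in the osteogenic cluster than in the other mesenchyme (Ibsp, Ifitm5, Smpd3, Alpl and Phex) and none lower. Over all 13420 genes measured in this comparison, 6.01% were called higher and 11.6% lower, and the median log2 ratio was -0.12. Sparc was not called and Spp1 had too few UMIs.

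**Figure D1:**
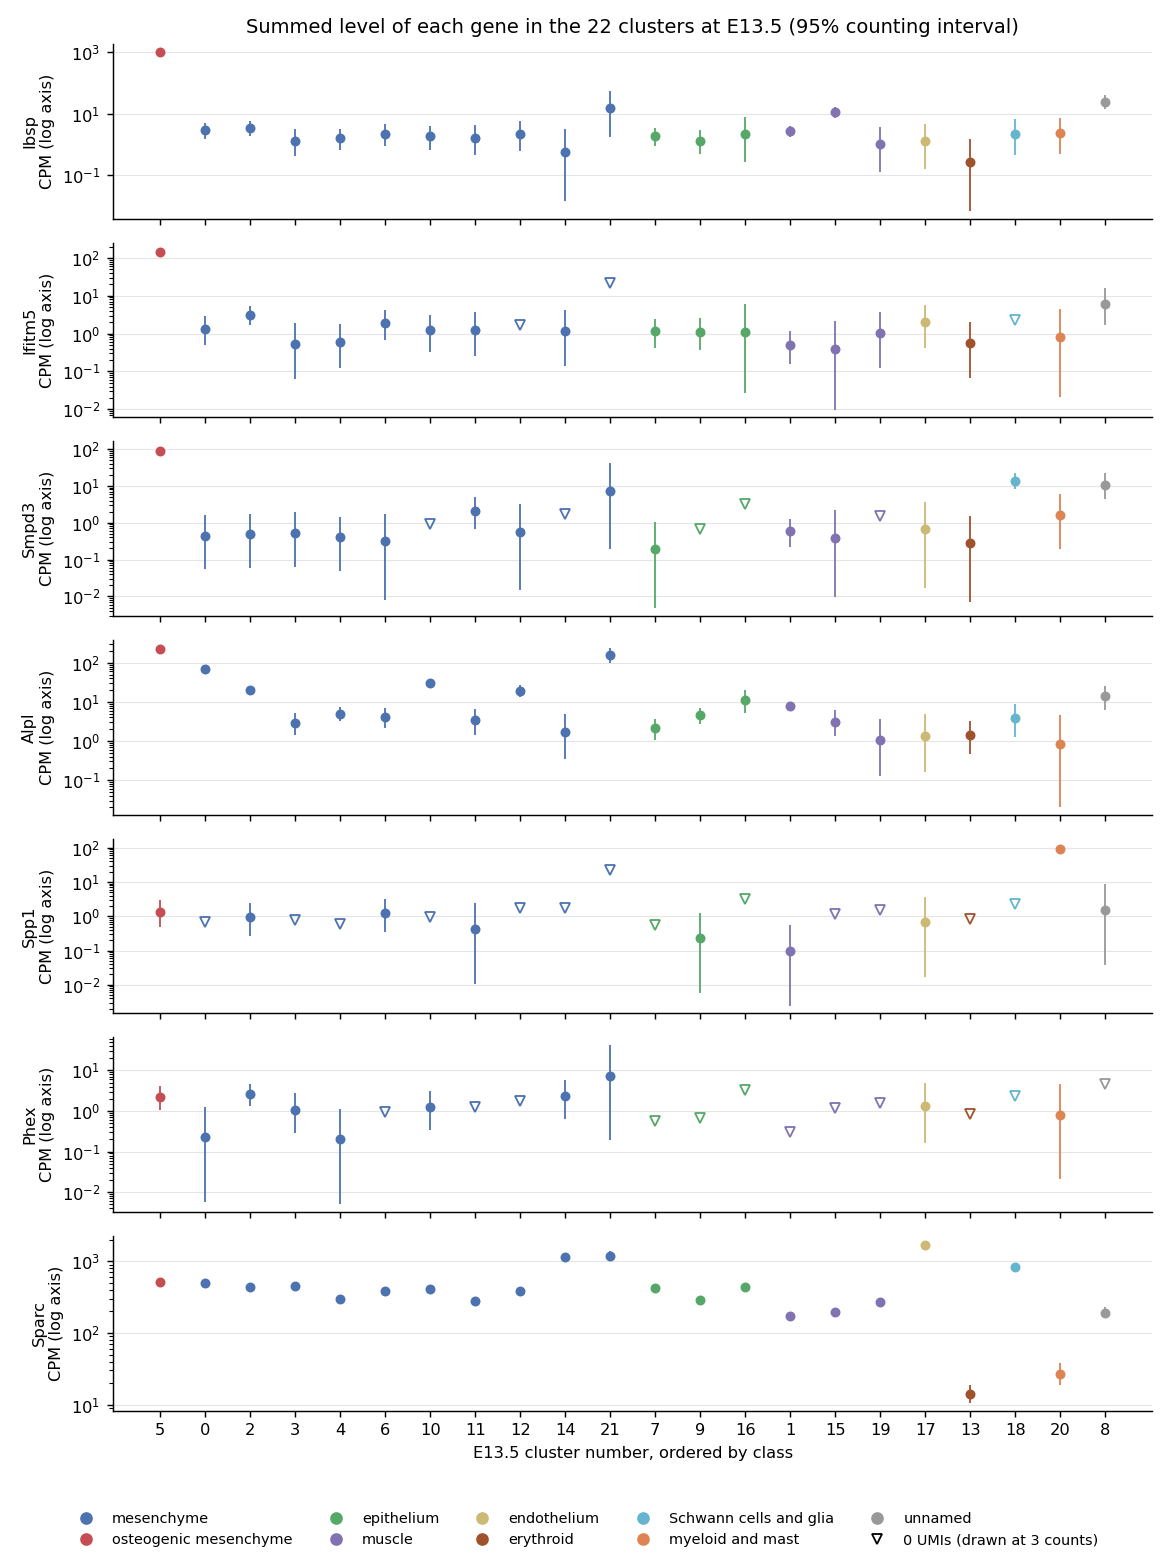
Level of each of the 7 genes (CPM of summed UMIs, log axis, 95% counting interval) in each of the 22 clusters at E13.5, ordered by class, with open triangles at 3 counts where a cluster had none. Ibsp, Ifitm5 and Smpd3 stand highest in cluster 5, Spp1 in cluster 20 and Sparc in cluster 17, while Alpl is spread over several mesenchyme clusters.

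Ibsp, the acidic glycoprotein at the surface of forming mineral, stood at 997 CPM in the osteogenic cluster (968 to 1026) and at 0.569 to 14.9 CPM in the 10 other mesenchyme clusters. The difference was 464-fold (363 to 604). Of the 4638 Ibsp UMIs in the library, 166 lay outside cluster 5. The highest level outside it was 24.4 CPM, in the shallow and unnamed cluster 8 (median 935.5 UMIs), and the lowest was 0.279 CPM, in the erythroid cells. After each cell was thinned to 2000 UMIs, 14.1% of osteogenic cells had an Ibsp UMI, and 19.9% did without thinning. Among the erythroid cells, which should lack bone transcripts, 1 of 207 had a UMI (0.483%, median depth 18517) and none after thinning.

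Not every Ibsp UMI outside cluster 5 came as a single count. In muscle cluster 15, 1 cell held 23 of the 29 Ibsp UMIs, together with 232 UMIs of muscle markers and 15 of osteogenic markers other than Ibsp in a total of 26451. In muscle cluster 1 a cell with 6 Ibsp UMIs held 21 UMIs of osteogenic markers other than Ibsp and 3 of muscle markers. These cells were kept, and no doublet caller was run.

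Ifitm5, the small membrane protein of osteoblasts, stood at 145 CPM in the osteogenic cluster (134 to 156) against 0 to 3.13 CPM in the other mesenchyme clusters. The ratio over their sum was 111-fold (80.0 to 157). Its UMIs were found in 49 of 422 osteogenic cells, with up to 81 in 1 cell. At E11.5 no cell had more than 1 Ifitm5 UMI, and the 32 UMIs were spread over 32 cells.

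Smpd3, which cleaves sphingomyelin to ceramide in the membrane, stood at 89.4 CPM in the osteogenic cluster (80.8 to 98.5) and was 166-fold higher than in the other mesenchyme (101 to 294). Cluster 18, of Schwann cells and glia, came next among the named clusters, at 13.7 CPM (8.14 to 21.7), from 18 UMIs in 7 of 102 cells. The interval of cluster 18 lies below that of the osteogenic cluster and above those of the muscle, epithelial and endothelial clusters with Smpd3 UMIs, whose upper bounds run up to 3.73 CPM. It overlaps those of the shallow clusters 8 and 21.

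Alpl, the phosphatase, was more widely spread than Ibsp, Ifitm5 and Smpd3. Its level was 223 CPM in the osteogenic cluster (209 to 237), 10.9-fold that of the other mesenchyme (9.81 to 12.02). It stood at 157 CPM in mesenchyme cluster 21 (96.9 to 239), 70.5 in cluster 0 (62.9 to 78.7), 30.2 in cluster 10, 20.4 in cluster 2 and 18.9 in cluster 12, and between 1.71 and 5.00 CPM in the other 5 mesenchyme clusters. The intervals of clusters 5 and 21 overlap, as do those of clusters 10, 2 and 12, and cluster 0 lies between these groups. Cluster 21 is small and shallow, with 72 cells, 21 Alpl UMIs and a median of 1833 UMIs per cell, and Sp7 was at 0 in it. Of all Alpl UMIs in the library, 43.3% lay outside the osteogenic cluster.

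Alpl already had a pattern at E11.5. Mesenchyme clusters 8 and 1 stood at 23.8 CPM (17.6 to 31.5) and 19.7 CPM (16.1 to 23.9), and their intervals overlap. The other 9 mesenchyme clusters of that stage lay between 2.50 and 5.999 CPM, all with upper bounds below the lower bounds of these 2. By Pearson r of log2(CPM + 1) over the 18 clusters at E11.5, the genes most like Alpl were the osteoblast transcription factor Sp7 (0.860, with a Spearman rho of 0.806), the cartilage matrix protein Ucma (0.856 and 0.848) and Tnn (0.824 and 0.741). By rho, Ucma lay above Sp7. The clusters share 1 library and its depth, so the correlation is a description.

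Phex, an endopeptidase whose loss causes X-linked hypophosphataemia, was barely detected. It had 39 UMIs in 34 cells at E13.5, of which 10 were in the osteogenic cluster and 11 in mesenchyme cluster 2. Its ratio over the other mesenchyme was 2.55-fold (1.10 to 5.48). That call was lost when the 5% deepest cells of each cluster were left out (2.16-fold) and when per-cell values were averaged (1.65-fold). The interval of cluster 2 (1.32 to 4.73 CPM) covers the level of the osteogenic cluster (2.23 CPM).

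Spp1 was found mainly outside the osteogenic cluster. Of its 128 UMIs at E13.5, 109 (85.2%) lay in cluster 20, at 89.1 CPM (73.2 to 108), and 6 in the osteogenic cluster, where 2 of 422 cells had any. No other cluster exceeded 1.53 CPM. The authors named cluster 20 mast cells, but of its 73 cells 72 had a UMI of Tyrobp and 54 of Csf1r, both macrophage markers, against 11 with the mast cell protease Cpa3 and, among osteoclast markers, 28 with Acp5 and 8 with Ctsk. It is called cluster 20 here.

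Within cluster 20 the Spp1 UMIs lay in 12 cells, and the 2 highest cells, with 43 and 30 UMIs, held 67.0% of them. The 12 cells were positive for Tyrobp in 12 cases and for Csf1r in 11, and Cpa3 and Kit were at 0 in all 12. A cell with 5 Spp1 UMIs held 326 UMIs of osteoclast markers. Over the 22 clusters the genes with the pattern most like that of Spp1 were the macrophage receptor Csf1r (Pearson r of 0.961 and Spearman rho of 0.516), Cd53 (0.954 and 0.491) and Fcgr3 (0.952 and 0.368). The gap between r and rho shows how far these values rest on 1 high cluster.

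Sparc, the collagen-binding matricellular protein, was found almost everywhere. At E13.5 it was highest in endothelial cluster 17, at 1684 CPM (1619 to 1751), followed by mesenchyme clusters 21 (1200 CPM) and 14 (1155 CPM), whose intervals overlap, and by Schwann cells and glia (846 CPM). The osteogenic cluster stood at 510 CPM (489 to 531), level with cluster 0 (498 CPM, 477 to 519), and only 1.14-fold above the other mesenchyme (1.09 to 1.19). It was lowest in cluster 20 (27.0 CPM) and in erythroid cells (14.2 CPM). Of all Sparc UMIs, 91.3% lay outside the osteogenic cluster.

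The genes with the likest pattern differ between members, again as a description over 22 clusters of 1 library, ranked by Pearson r among 11563 genes with 100 UMIs or more, members left out. For Ibsp they were Crxos (Pearson r of 0.872 and Spearman rho of 0.340), the channel protein Panx3 (0.857 and 0.335) and the fibrillar collagen Col11a2 (0.826 and 0.0679). For Ifitm5 the same 3 genes came first, led by Col11a2 (0.923 and 0.490). For Smpd3 they were the homeobox gene Dlx6 (0.790 and 0.499), Col11a2 (0.785) and the cartilage link protein Hapln1 (0.754). Between the members Ibsp and Smpd3 themselves r was 0.837 and rho 0.584, and between Ibsp and Ifitm5 0.815 and 0.112. For Alpl they were Epdr1 (0.867 and 0.795), the homeobox gene Msx1 (0.863 and 0.780) and Cox4i2 (0.853 and 0.918). For Sparc they were the focal adhesion kinase Ptk2 (0.962 and 0.772), the collagen chaperone Serpinh1 (0.917 and 0.779) and Utrn (0.907 and 0.850). Phex had too few UMIs to be ranked.

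Between the stages, 5 of the 6 genes listed at both rose in the mesenchyme from E11.5 to E13.5 by the call rule, and Spp1 fell. Of the 14139 genes measured, 27.0% were called higher and 12.2% lower (median log2 0.14). Rises were therefore common among all genes. Each value compares 1 library with 1 library, and in such sums more cells of a type cannot be told apart from more RNA per cell.

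Ifitm5 went from 0.777 CPM at E11.5 to 20.1 CPM at E13.5 (25.8-fold, 17.8 to 38.8) and Smpd3 from 0.402 to 12.2 CPM (30.2-fold, 18.1 to 54.5). Of the E13.5 mesenchyme UMIs of these genes, 649 of 688 and 401 of 417 were in the osteogenic cluster. Without it, Ifitm5 stood at 1.31 CPM (1.68-fold, 1.01 to 2.82), a call that was lost with TMM factors (1.54-fold, 0.927 to 2.58) and with median-ratio size factors (1.50-fold, 0.907 to 2.52), and Smpd3 at 0.537 CPM (1.33-fold, 0.618 to 2.90), which was not called. Outside the osteogenic cluster 1.09% of E13.5 mesenchyme cells had an Ifitm5 UMI (median depth 8183), against 0.966% of erythroid cells (18517). At E11.5 the shares in mesenchyme and erythroid cells were 0.492% (5895) and 0.439% (13137). These shares compare cells of unequal depth. By level, Ifitm5 stood at 1.31 CPM in the other E13.5 mesenchyme and 0.558 CPM in erythroid cells (0.0676 to 2.02). At E11.5 it stood at 0.777 CPM in mesenchyme and 0.327 CPM in erythroid cells (0.0396 to 1.18). Each erythroid level rests on 2 UMIs, and its interval covers the mesenchyme level. Whether this remainder is background was not tested.

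Alpl went from 7.21 to 47.0 CPM (6.52-fold, 5.72 to 7.44), and its rise was smaller but still called without the osteogenic cluster (20.5 CPM, 2.85-fold, 2.46 to 3.30). Phex went from 0.107 to 1.05 CPM (9.79-fold, 3.51 to 37.9), from only 4 UMIs at E11.5. It is X-linked, and among cells with no Xist UMI at either stage the ratio was 11.85-fold. Sparc went from 80.1 to 455 CPM (5.68-fold, 5.47 to 5.91) and was little altered without the osteogenic cluster (5.58-fold). Without that cluster 4 of the 6 genes were called higher and 1 lower (3 and 1 with either rescaling), while 27.2% of 14017 genes were called higher and 12.3% lower.

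Spp1 fell from 2.39 CPM (89 UMIs) to 0.437 CPM (15 UMIs), 5.46-fold lower (3.14 to 10.2). At E11.5, 36 of its 94 UMIs were in mesenchyme cluster 7, at 15.02 CPM (10.5 to 20.8), with 2 cells of 11 UMIs each. Macrophage markers summed to 3.34 CPM in that cluster, with C1qb, Csf1r and Cx3cr1 at 0. Without cluster 7 the level was 3.47-fold lower at E13.5, and without the 2 mesenchyme cells with the most Spp1 UMIs in each library 6.84-fold lower.

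**Figure D2:**
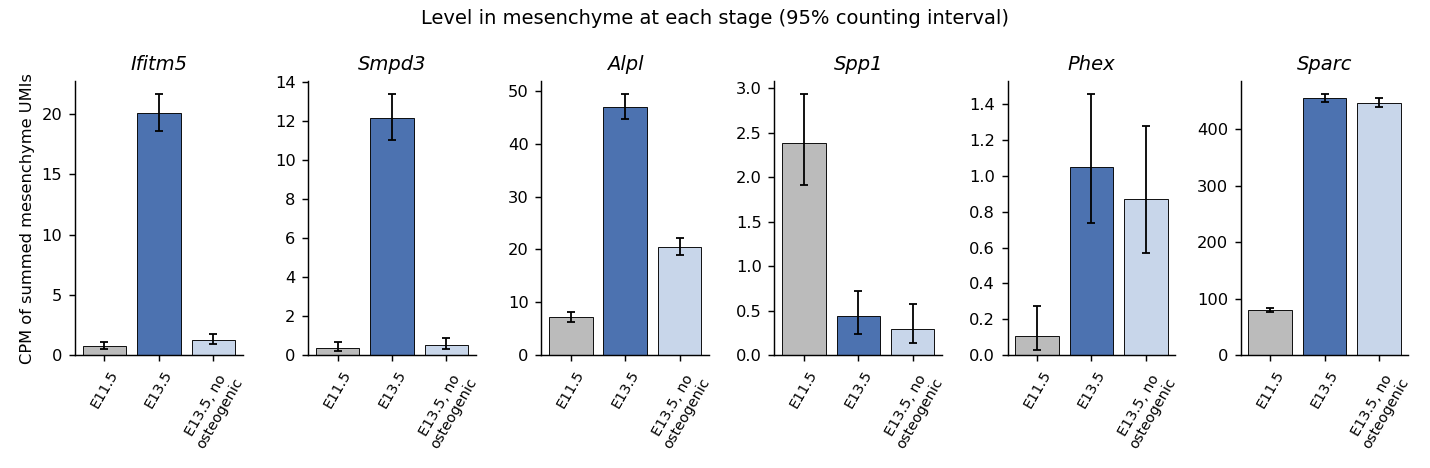
Level in the mesenchyme (bars, CPM of summed UMIs on a linear axis from 0, with 95% counting interval) for the early library, the late one, and the late one without its osteogenic cluster. Leaving that cluster out takes Ifitm5 from 20.1 to 1.31 CPM and Smpd3 from 12.2 to 0.537 CPM, and Sparc from 455 to 447 CPM.

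The rise of Sparc was not confined to mesenchyme. The 11 mesenchyme clusters at E11.5 ranged from 35.3 to 165 CPM and the 11 at E13.5 from 277 to 1200 CPM, so they did not overlap. In the epithelium Sparc went from 139 to 371 CPM (2.66-fold, 2.41 to 2.96), where 9.33% of 11677 genes were called higher and 14.2% lower. In muscle it went from 89.8 to 190 CPM (2.11-fold, 1.80 to 2.49), with 9.24% of 11428 genes called higher and 13.7% lower. In the endothelium it went from 544 to 1684 CPM (3.09-fold, 2.86 to 3.36), with 7.43% of 8586 genes called higher and 13.6% lower. Markers of other cells moved too in the endothelial clusters: macrophage markers summed to 711 CPM at the earlier stage and 12.7 CPM at the later (6 and 4 of 6 with UMIs, C1qa and Csf1r at 0 in the later), and erythroid markers to 6213 and 24698 CPM (6 of 6 in both). Their part in the Sparc ratio was not tested.

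In erythroid cells Sparc was not called (0.988-fold, 0.686 to 1.41), with 14.4 CPM at the earlier stage and 14.2 CPM at the later. There the median log2 ratio of all 7055 genes measured was -2.48, with 0.921% called higher and 90.0% lower. After thinning to 2000 UMIs, 2.63% and 3.40% of erythroid cells had a Sparc UMI, against 15.3% (E11.5) and 54.6% (E13.5) of mesenchyme cells, with 79 shallower mesenchyme cells of the later library left out. Alpl also rose in the epithelium, from 1.35 to 3.86 CPM (2.87-fold, 1.04 to 11.02), where the E11.5 value rests on 4 UMIs, and was not called in muscle (1.23-fold, 0.620 to 2.78).

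**Figure D3:**
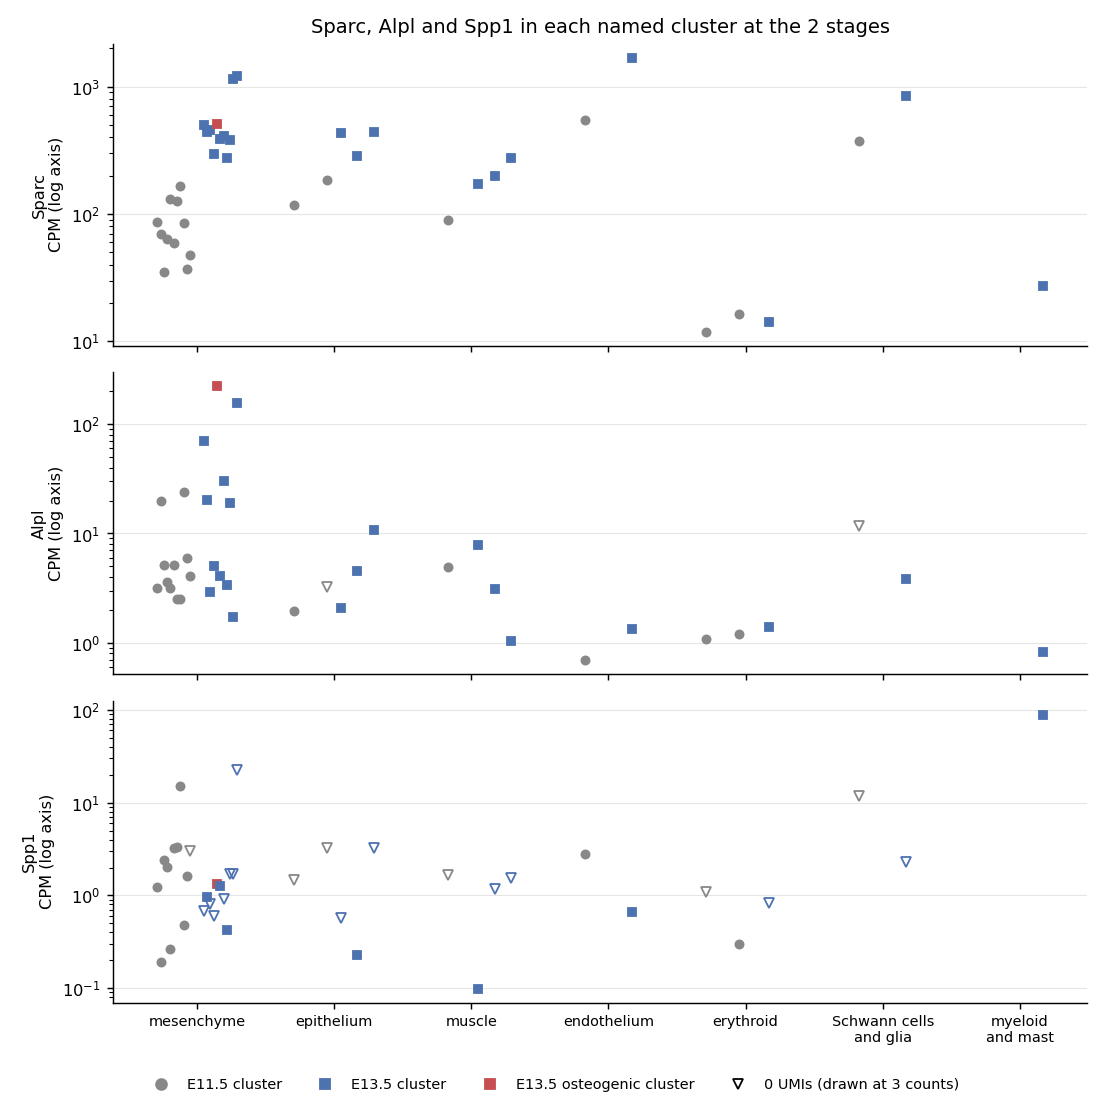
Level of Sparc, Alpl and Spp1 (CPM of summed UMIs, log axis) in each named cluster at the 2 stages, by class of cell, with open triangles at 3 counts where a cluster had none. For Sparc the 11 mesenchyme clusters at E13.5 range from 277 to 1200 CPM and the 11 at E11.5 from 35.3 to 165 CPM. The level in erythroid cells stays near 14 CPM.

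Inside the osteogenic cluster Ibsp, Ifitm5 and Smpd3 were found in 84, 49 and 72 of the 422 cells, while Alpl was in 255 and Sparc in 388. The 47 cells with 10 or more Ibsp UMIs held 97.3% of the Ibsp UMIs of the cluster. The 10 highest cells held 57.3%, and the highest cell had 503. The split at 10 UMIs cuts a continuous range, with 6 cells between 8 and 12 UMIs. The 47 cells were deeper (median 13671 UMIs) than the 338 cells with no Ibsp (9292), and the authors' phase calls put 68.1% of them in G1 against 57.4%.

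Of the 6 other genes, 4 reached 20 UMIs in the comparison of these 47 with the 338 cells, and all 4 were higher in the Ibsp-rich cells. Over all 9584 genes measured, 6.72% were called higher and 10.9% lower, and the median log2 ratio was -0.15. Ifitm5 stood at 981 CPM in the Ibsp-rich cells and 2.63 CPM in the cells with no Ibsp, 373-fold higher (195 to 820). Smpd3 stood at 473 against 7.89 CPM (59.9-fold, 40.4 to 92.4).

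The difference was smaller for the genes with wider patterns. Alpl stood at 520 against 139 CPM (3.73-fold, 3.23 to 4.29), and Sparc at 1276 against 365 CPM (3.50-fold, 3.20 to 3.83). Sparc, which did not mark the osteogenic cluster as a whole, was thus higher in its Ibsp-rich cells. Of the 10 Phex UMIs in the cluster, 9 were in the Ibsp-rich cells and 0 in the cells with no Ibsp.

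The genes differed in the cells with fewer Ibsp UMIs. In the 22 cells with 1 to 3 Ibsp UMIs, Alpl was at 350 CPM (280 to 431) and Smpd3 at 76.4 CPM (46.0 to 119). Ifitm5 was at 0 (upper bound 14.8 CPM). The Smpd3 level rests on 19 UMIs in 5 cells and that of Alpl on 87 UMIs in 17 cells. In the 15 cells with 4 to 9 Ibsp UMIs, Alpl was at 583 CPM, Smpd3 at 294 CPM (220 to 386) and Ifitm5 at 62.2 CPM (31.1 to 111). There Smpd3 had 52 UMIs in 10 cells and Ifitm5 11 UMIs in 6 cells. The intervals take no account of UMIs gathered in few cells. The Alpl interval in those cells (476 to 707) overlaps that of the Ibsp-rich cells (465 to 578), whereas for Smpd3 (421 to 529) and Ifitm5 (906 to 1061) the Ibsp-rich cells lie above. These bins order cells by 1 transcript at 1 stage and are not a time course.

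Both regulators were present in cells with no Ibsp. Sp7 stood at 62.6, 141, 311 and 334 CPM in the cells with 0, 1 to 3, 4 to 9 and 10 or more Ibsp UMIs, and Runx2 at 75.1, 100, 119 and 153 CPM. The Runx2 intervals of neighbouring bins overlap. Sox9, the cartilage regulator, stood at 67.5 (59.1 to 76.8), 40.2 (19.3 to 73.9), 90.5 (51.7 to 147) and 25.0 CPM (14.3 to 40.5) in the same bins. The Sox9 intervals of the cells with 0, 1 to 3 and 4 to 9 Ibsp UMIs overlap, so no order among these bins is resolved. The interval of the cells with 10 or more lies below those of the cells with 0 and with 4 to 9. It overlaps that of the cells with 1 to 3. The Sox9 level at 4 to 9 rests on 16 UMIs in 5 cells. The cartilage collagen Col2a1 had UMIs in 39 of the 47 Ibsp-rich cells and 114 of the 338 cells with no Ibsp, at 207.5 and 262 CPM.

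**Figure D4:**
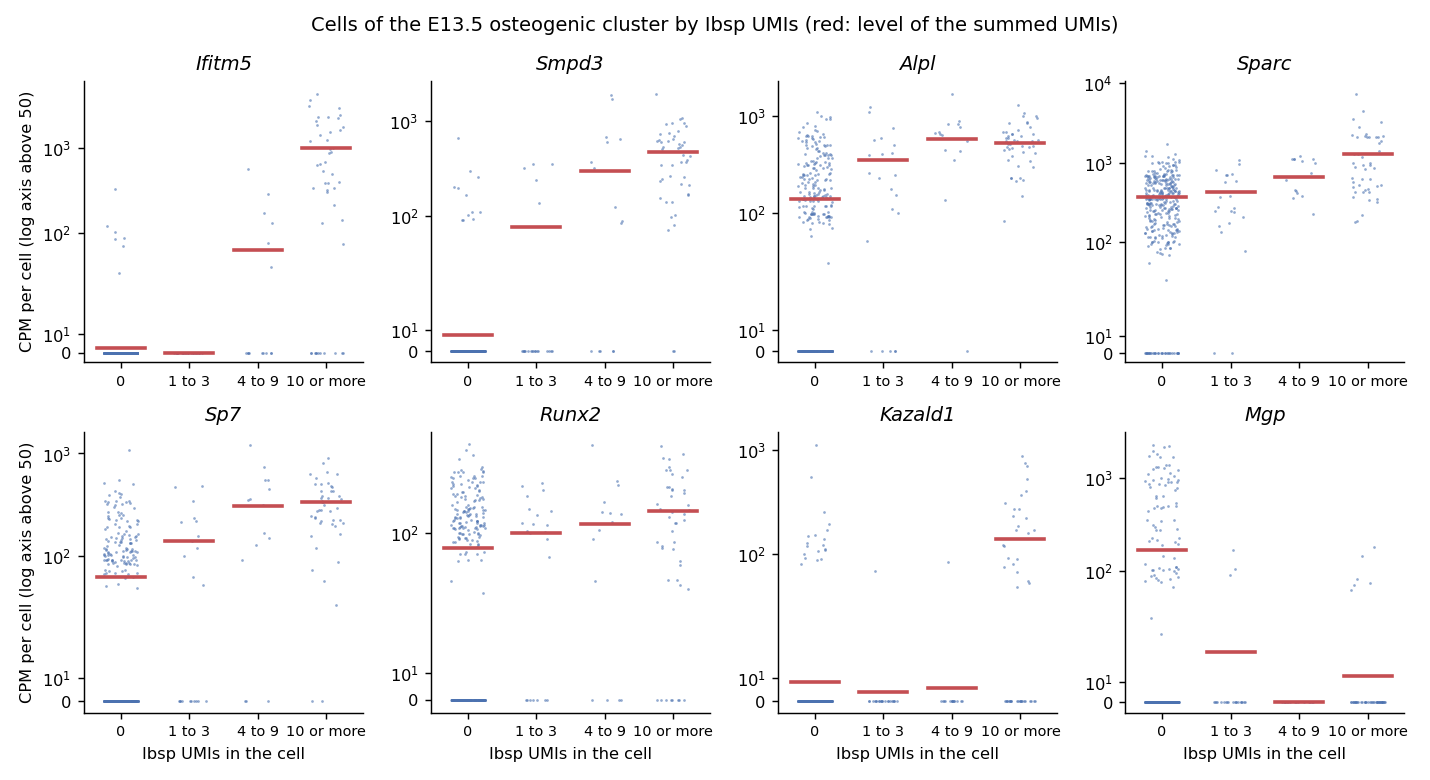
Per-cell level (CPM, log axis above 50) of 8 genes in the 422 cells of the osteogenic cluster at E13.5, by the number of Ibsp UMIs in the cell. Each point is a cell and each red line is the level of the summed UMIs of the bin, which for Ifitm5 goes from 2.63 to 981 CPM and for Mgp from 168 to 12.5 CPM.

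The overlap within single cells was read after thinning each of 417 osteogenic cells to 2000 UMIs, which leaves out 5 shallower cells. Ibsp and Ifitm5 were found together in 5.52% of cells (3.53 to 8.16), against 0.814% for the product of their single shares. Of the 24 cells with Ifitm5, 23 also had Ibsp, while 23 of 59 cells with Ibsp had Ifitm5. Ibsp and Smpd3 were found together in 7.19% (4.91 to 10.1) against 1.26%, and 30 of the 37 cells with Smpd3 had Ibsp. Ifitm5 and Smpd3 shared 3.84% of cells (2.21 to 6.16) against 0.511%.

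Pairs with a broadly expressed gene came closer to the product of the single shares. This is partly fixed in advance. The more widely a gene is detected, the less the joint share can exceed the product as a ratio. Ibsp and Alpl shared 10.1% against 4.51%, Ibsp and Sparc 10.1% (7.36 to 13.4) against 7.77%, and Alpl and Sparc 20.4% (16.6 to 24.6) against 17.5%. For the last 2 pairs the interval of the joint share covers the product. Ibsp and Runx2 shared 4.08% (2.39 to 6.45) against 2.34%, so cells with an Ibsp UMI carried a Runx2 UMI in 17 of 59 cases at this depth.

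Levels also differed by the authors' cell cycle phase within the osteogenic cluster. Ibsp stood at 1586 CPM in the 246 cells called G1, 445 in the 95 called S and 342 in the 81 called G2M. Without the highest cell of each phase these were 1375, 338 and 202 CPM. Ifitm5 stood at 215, 65.9 and 79.0 CPM in the same phases, with UMIs in 31, 12 and 6 cells. Without the highest cell of each phase Ifitm5 was at 181, 39.7 and 35.8 CPM, so S and G2M changed order. Smpd3 stood at 122, 72.4 and 40.4 CPM, Sparc at 653, 396 and 333 CPM and Alpl at 261, 199 and 170 CPM. Without thinning, the share of cells with an Ibsp UMI was 21.1% in G1, 17.9% in S and 18.5% in G2M. For Ifitm5 it was 12.6%, 12.6% and 7.41%, and for Smpd3 19.9%, 15.8% and 9.88%. Depth was not matched between the phases, so these shares cannot be set against the levels.

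The other genes of the pathway were read from 4 lists. Over all genes measured, 6.01% were called higher and 11.6% lower in the osteogenic cluster. Between the stages 27.0% were called higher and 12.2% lower at E13.5. Of the 12 osteoblast transcription factors, 9 were called higher in the osteogenic cluster than in the other mesenchyme, 1 lower and 2 neither, with a median log2 ratio of 1.32. The highest ratios were those of the homeobox gene Dlx3 (53.1-fold), Sp7 (44.1-fold), Runx2 (30.6-fold) and Dlx5 (25.9-fold). Twist1, a factor of undifferentiated mesenchyme, was 2.48-fold lower, and Atf4 was not called (1.18-fold). Between the stages the same list had 4 higher and 5 lower with a median of -0.01: Sp7 was 2.06-fold higher at E13.5, Runx2 1.51-fold lower and Dlx5 5.61-fold lower. Without the osteogenic cluster 3 were higher and 7 lower (median -1.17), where 27.2% of 14017 genes were called higher and 12.3% lower. Sp7 then stood 3.22-fold lower, Runx2 7.34-fold and Dlx5 23.9-fold lower. The cluster left out at E13.5 is rich in Sp7, Runx2 and Dlx5, and all E11.5 mesenchyme clusters were kept. Lower ratios for these genes are therefore partly fixed in advance.

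Of the 25 genes of bone matrix and collagen assembly, 20 reached 20 UMIs in the mesenchyme at E13.5. In the osteogenic cluster 7 were higher, 2 lower and 11 neither (median log2 ratio 0.39), against 6.01% higher and 11.6% lower of all genes. Kazald1, a secreted protein of the insulin-like growth factor binding family, was 17.2-fold higher. The keratan sulphate proteoglycan Omd was 9.85-fold, the calcification inhibitor Mgp 4.96-fold and Cthrc1 4.45-fold higher. The proteoglycans Bgn and Ogn were 1.54-fold and 1.61-fold lower. Col1a1, the chain of type I collagen, stood at 657 CPM against 660 CPM. Between the stages 15 of 20 were higher and none lower (median 1.67), against 27.0% higher and 12.2% lower of all genes. Mgp was 14.3-fold, Ogn 9.21-fold and Bgn 6.51-fold higher at E13.5.

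Of the 18 genes of phosphate, pyrophosphate and mineral handling, 15 were measured. In the osteogenic cluster 4 were higher, 1 lower and 10 neither (median 0.19), against 6.01% higher and 11.6% lower of all genes. The sphingomyelin synthase Sgms2, which runs the reaction opposite to that of Smpd3, was 35.0-fold higher. The pyrophosphate-making enzyme Enpp1 was 10.9-fold higher (18 against 11 UMIs), the carbonic anhydrase Car2 5.76-fold and the vitamin D receptor Vdr 5.31-fold (12 against 15 UMIs). The phosphate carrier Slc20a1 was 1.66-fold lower and Anxa6 was not called (1.40-fold lower). Between the stages 10 of 15 were higher and 2 lower (median 0.91), against 27.0% higher and 12.2% lower of all genes. Among them Sgms2 was 8.09-fold higher and Car2 7.68-fold lower at E13.5. Haemoglobin transcripts made up 1.24% of mesenchyme UMIs at E11.5 and 0.218% at E13.5. The part of RNA from blood cells in the Car2 ratio was not tested.

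The paralogues of the members did not share the members' pattern as a group. Of the 12 genes listed as such, 3 were higher in the osteogenic cluster, 4 lower and 5 neither (median -0.28). The shares of all genes were 6.01% higher and 11.6% lower. Sparcl1, the closest relative of Sparc on the list, was 7.72-fold lower, at 4.90 against 37.8 CPM, and Spock3 7.70-fold lower. Spock1 was 3.85-fold and Mme, a peptidase of the same family as Phex, 1.86-fold higher. Enpep, a peptidase of another family that the list also holds, was 4.23-fold higher. Ifitm3, a neighbour of Ifitm5 in its gene family, was not called (1.04-fold). Between the stages 9 of the 11 listed in both tables were higher and 1 lower (median 1.18). The shares of all genes were 27.0% higher and 12.2% lower.

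**Figure D5:**
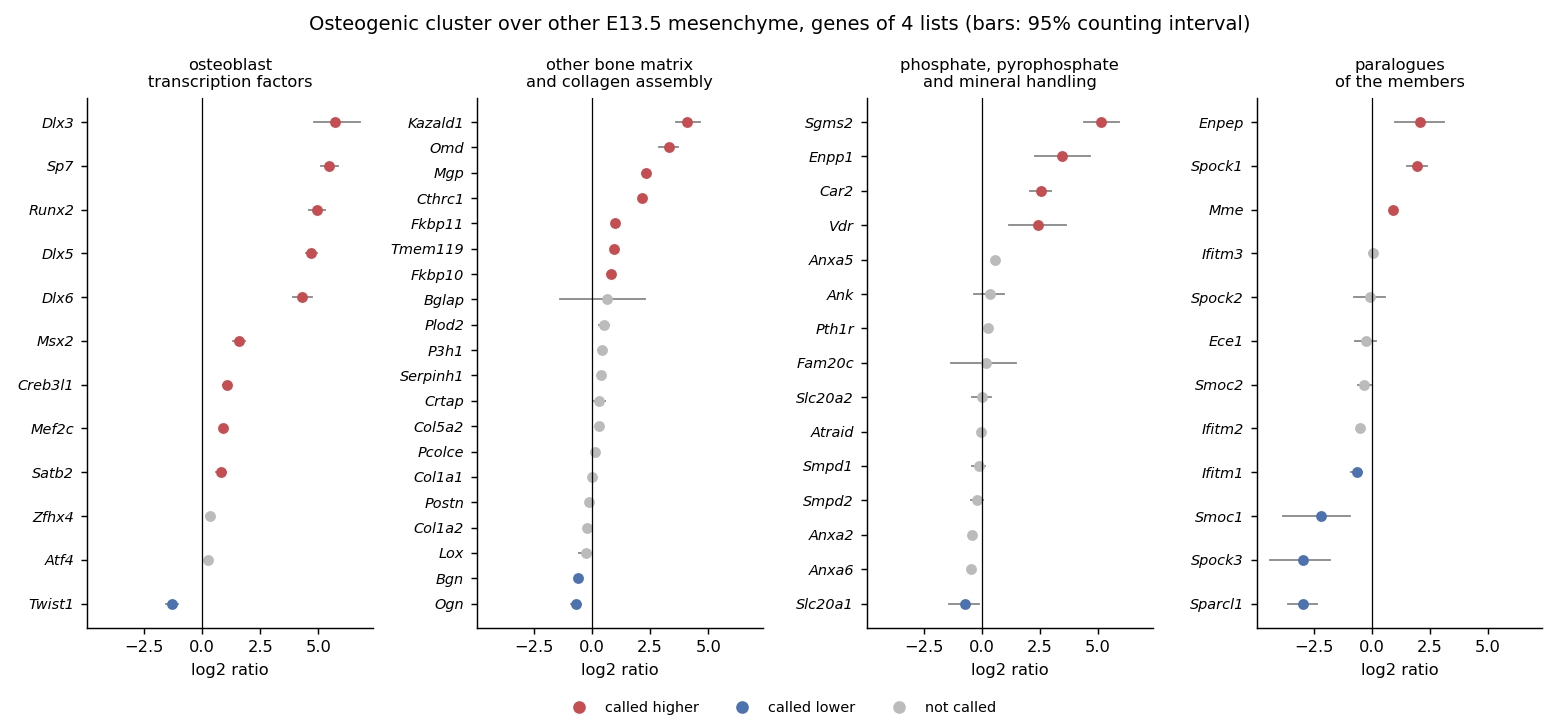
Log2 ratio of the osteogenic cluster over the other mesenchyme at E13.5 for each measured gene of the 4 lists, with its 95% counting interval. Dlx3, Sp7 and Runx2 lead the transcription factors, Kazald1 the matrix genes and Sgms2 the mineral genes, while Sparcl1 and Spock3 are the lowest of the paralogues.

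The lists were also read between the Ibsp-rich cells and the cells with no Ibsp, where 6.72% of all genes were called higher and 10.9% lower. Of 12 transcription factors, 6 were higher in the cells with 10 or more Ibsp UMIs than in those with none and 1 lower (median log2 ratio 0.57). Of 19 matrix genes 13 were higher and 4 lower (median 1.25), of 12 mineral genes 3 were higher and 0 lower (median 0.26), and of 9 paralogues 1 was higher and 2 lower (median -0.28).

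Sgms2 stood at 122 CPM in the Ibsp-rich cells and 5.26 CPM in cells with no Ibsp (23.1-fold), Kazald1 at 139 against 8.18 CPM (16.965-fold) and Dlx3 at 68.6 against 7.02 CPM (9.78-fold). Dlx5, a marker of the cluster as a whole, was not called (133 against 182 CPM). Mgp went the other way, at 12.5 against 168 CPM, 13.5-fold lower (6.79 to 31.3), and so did Ogn (3.32-fold lower), Bgn (3.14-fold lower) and Mme (2.78-fold lower). The higher Mgp and Mme levels of the osteogenic cluster therefore came from cells other than its Ibsp-rich ones.

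Col1a1, which was not called between the osteogenic cluster and the other mesenchyme, stood at 1721 CPM in the Ibsp-rich cells against 459 CPM in the cells with no Ibsp (3.75-fold). Outside the rule for named genes, and chosen after their values were seen, the collagen cross-linking enzyme Lox was 15.3-fold higher in the Ibsp-rich cells, the parathyroid hormone receptor Pth1r 6.36-fold higher and Postn 9.04-fold lower. Depth and phase differed between these cell groups as given above, and their part in these ratios was not tested for the list genes. For the members, thinning each cell to 4000 UMIs and splitting at 4 Ibsp UMIs gave ratios of 313 for Ifitm5, 58.9 for Smpd3 and 3.16 for Alpl.

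Late bone matrix genes were scarce, and the 2 given here were chosen after their values were seen. Bglap (osteocalcin) had 36 UMIs at E13.5, of which 4 were in the osteogenic cluster. Dmp1 had 32 UMIs at E13.5, of which 23 lay in muscle clusters and 4 in the osteogenic cluster, and its 3 UMIs at E11.5 were all in muscle.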

How the data were processed

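For each library the authors deposited raw UMI counts (whole numbers) and, for every cell, its cluster, lineage name, phase call and cell cycle score, of which the score was not used. The mitochondrial share is a fraction in the deposited metadata. Per the submitters' processing notes, the tools were Cell Ranger 2.0.0 and Seurat 2.3.4 and the build mm10. No doublet removal is recorded in the labels, and none was done here. Counts were summed per cluster or class and divided by their total (CPM). Ratios have exact conditional binomial intervals, shares exact Clopper-Pearson intervals. Clusters follow the authors' names, except that E11.5 cluster 17 led with glial and cluster 14 with muscle markers. Likeness used log2(CPM + 1). For each member the 3 likest other genes by Pearson r were named, and from each list the 4 highest and 2 lowest ratios of the osteogenic cluster. Alternatives covered scaling, depth, fold threshold, Xist-negative cells and single cells or clusters left out. Members and lists were chosen with earlier results of these data known. The calculations were tested on simulated data. Intervals used scipy 1.17.1, tables pandas 2.3.3 and numpy 2.4.6 under Python 3.11.15, figures matplotlib 3.10.9, and TMM factors in an alternative edgeR 4.0.16 under R 4.3.3. Sums rest on 49913485 UMIs at E11.5 and 67838169 at E13.5.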

Additional observations from a re-analysis of the deposited data

How the results depend on the processing

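No paired analysis was possible because each stage is 1 library. The alternatives gave 142 ratios of the members, of which 26 left the counting interval of the reported value. None reversed the direction of a reported ratio that was called higher or lower. For reported ratios that were not called, direction was not compared. Leaving out the osteogenic cluster together with TMM or size factor scaling took the members higher at E13.5 from 5 to 3, since Ifitm5 and Smpd3 were then not called. The numbers of members called in the other alternatives stayed within 1.5 times the reported count. Scaling by TMM factors (5.19-fold) or by median-ratio size factors (5.16-fold) lowered the Sparc ratio between stages, and over the whole mesenchyme no member changed its call. These moved the median log2 ratio of all genes from 0.14 to 0.00999 with TMM factors. Calling at 2-fold left 3 of 5 transcription factors, 1 of 2 mineral genes and 0 of 1 paralogue lower at E13.5, and in the osteogenic cluster 4 of 7 matrix genes higher, 0 of 2 matrix genes lower and 0 of 1 mineral gene lower. TMM scaling left 1 of 2 matrix genes lower in the osteogenic cluster. The share of osteogenic cells with Ibsp was 19.9% without thinning, against 14.1%. Ibsp and Smpd3 shared 10.9% of cells at 4000 UMIs, 14.2% without thinning and 4.80% without the 5% deepest cells, against 7.19%. The alternatives for the Ibsp split, those that leave out single cells or E11.5 cluster 7, and the 2 combined ones were chosen after seeing the data. Spp1, Phex and the E11.5 levels of Ifitm5 and Smpd3 rest on few UMIs.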
